A study of Mus musculus with 6 samples.

Results

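The genes described here are the 48 measured genes that encode Wnt ligands, their frizzled and LRP receptors, their secreted and intracellular inhibitors, and nuclear effectors of the pathway. They were taken by gene symbol from 18193 genes on an Affymetrix 3' expression array, and comprise 19 ligands, 12 receptors, 9 secreted inhibitors, 3 intracellular inhibitors and 5 transcription factors. The gene once called Sfrp3 carries the symbol Frzb and so stood outside the rule. RNA came from OLV2-1, a mouse embryonic stem cell line in which the fluorescent protein Venus was knocked into the Oct4 locus, with 2 arrays in each of 3 groups. The ESC group was undifferentiated and sorted as Oct4-Venus+, to which the sorting protocol adds CD31+ (CD31 is the product of Pecam1). EpiSC-like cells (epiblast stem cell-like) were the Oct4-Venus+/Pecam1- fraction of aggregates on day 3 of SFEBq, a serum-free suspension culture of reaggregated cells that favours neural fates. The third group was the Oct4-Venus+ fraction of such aggregates on day 7, with no Pecam1 gate named. All groups derive from this 1 line. Trypsin dissociation, a recovery step and antibody staining preceded the first 2 sorts, whereas day 7 aggregates were taken apart with EDTA alone, so stage and handling cannot be told apart in the comparisons with day 7. Whether the 2 arrays of a group stem from different cultures is not stated, and p-values therefore measure only the spread between these samples.

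Wnt ligands are lipid-modified secreted proteins that bind frizzled receptors together with LRP5 or LRP6. In the canonical branch, binding disables a destruction complex built on axin, APC and the kinase GSK3, so that beta-catenin accumulates and joins TCF/LEF factors on DNA; other branches act on cell polarity through receptors such as ROR1. In mouse embryonic stem cells the pathway is known for relieving repression by Tcf7l1 and sustaining self-renewal, and in the epiblast it drives formation of the primitive streak and posteriorises the neural plate.

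Each gene was read by its probe set of highest mean signal, and differences below are on the scale log2(signal + 16), which understates changes of dim genes. The label of the cells was checked first. Pou5f1, the gene of Oct4, read 7927 and 14055 in ESC, 6244 and 9923 in EpiSC-like cells and 6533 and 9062 at day 7. Pecam1, the gene of the sorting gate, read 728 and 343 in ESC, 401 and 177 in EpiSC-like cells and 767 and 488 at day 7. Its ESC and EpiSC-like arrays overlapped (-0.87 ± 0.51, limma adjusted p = 0.482), so its RNA level alone did not separate the arrays of these groups. Within the replicate 1 and replicate 2 arrays it was lower in EpiSC-like cells (-0.835 and -0.899). With the replicate number as a block in the fit it did not pass either (limma adjusted p = 0.144). The list for naive ESC held 7 markers, among them the sorting genes Pou5f1 and Pecam1. Signal of the 7 summed to 54342 and 72479 in ESC, 25824 and 24157 in EpiSC-like cells and 36233 and 41978 at day 7. Signal of 4 primed epiblast markers summed to 12694 and 9730, then 28300 and 32964, then 16520 and 12636. Of these, Fgf5 (4.76 ± 0.33, limma adjusted p = 0.0147) and Pou3f1 (4.98 ± 0.55, adjusted p = 0.0209) rose at day 3. Dnmt3b and Otx2 did not pass (1.22 and 0.78, adjusted p = 0.128 and 0.169). Dnmt3b was the largest part of each primed sum (10402 and 7148 in ESC, 10850 and 7356 at day 7). At day 7 Fgf5 rose against ESC (2.90 ± 0.33, limma adjusted p = 0.0292). Pou3f1, Otx2 and Dnmt3b stood at 2.33, 0.925 and 0.05 there and did not pass (adjusted p = 0.108, 0.118 and 0.955). Signal of 12 endoderm markers summed to 6344 and 23031 on the day 7 arrays, against 5742 and 5598 in ESC and 2583 and 3042 in EpiSC-like cells. Sparc was the largest part of each sum (3616 and 3233 in ESC, 2920 and 8610 at day 7). On both day 7 arrays Ttr, Afp, Sox17, Cubn, Col4a1, Gata6, Foxa2 and Dab2 lay above both ESC arrays. Sparc, Lama1, Amn and Gata4 did not. The median log2 difference of the 12 from ESC at day 7 was 1.84, and 0 of them passed. The replicate 1 and replicate 2 arrays also differed in their highest signals (30793 to 36841 against 63296 to 66643), and the poly-A controls were low (81.3 and 81.8) on ESC replicate 2 and EpiSC-like replicate 2 and between 682 and 932 on the other 4 arrays. In bulk RNA, fewer cells of a type and less RNA per cell cannot be told apart.

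EpiSC-like cells at day 3 differed from ESC in 7 of the 48 genes. The transcription factor genes Lef1 and Sp8, the ligand gene Wnt8a, the receptor genes Fzd1 and Fzd2 and the inhibitor gene Sfrp2 rose, and the receptor gene Fzd5 fell. Of all 18193 genes 1.33% rose and 0.572% fell in this comparison (1.90% in either direction, limma adjusted p under 0.05), against 6 and 1 of 48 here. The median log2 difference was 0.22 over the 48 genes and 0.03 over all genes. At day 7, 1 of the 48 rose against ESC, Sfrp2, where 0.764% of all genes rose and 0.286% fell; the medians were 0.22 and 0.02. Between day 7 and EpiSC-like cells 0 of the 48 and 0% of all genes passed in limma, although 7 of the 48 and 2573 of all genes had an unadjusted p under 0.05. The 3 comparisons share arrays, so their values are given side by side and not correlated. Counted in either direction, the arrays of both groups did not overlap in 28 of the 48 genes between EpiSC-like cells and ESC (44.8% of all genes), in 26 between day 7 and ESC (50.2% of all genes) and in 22 between day 7 and EpiSC-like cells (45.9% of all genes). Whether a gene passed varied with the arrays kept and with the settings of the fit. Without any 1 of the 6, fewer of the 48 and fewer of all genes passed in both comparisons with ESC. With 1 array left out, the day 3 difference ran from 3.00 to 4.63 in Lef1, from 3.06 to 4.31 in Wnt8a and from -1.67 to -1.25 in Fzd5. Without a day 7 array the day 3 differences were unchanged. With the replicate number as a block, 0 of the 48 passed in either comparison (smallest limma adjusted p = 0.0526 and 0.0668), as did 0 of all genes. With a pseudocount of 1 in place of 16, also 0 of the 48 and 0 of all genes passed in each comparison.

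**Figure D1:**
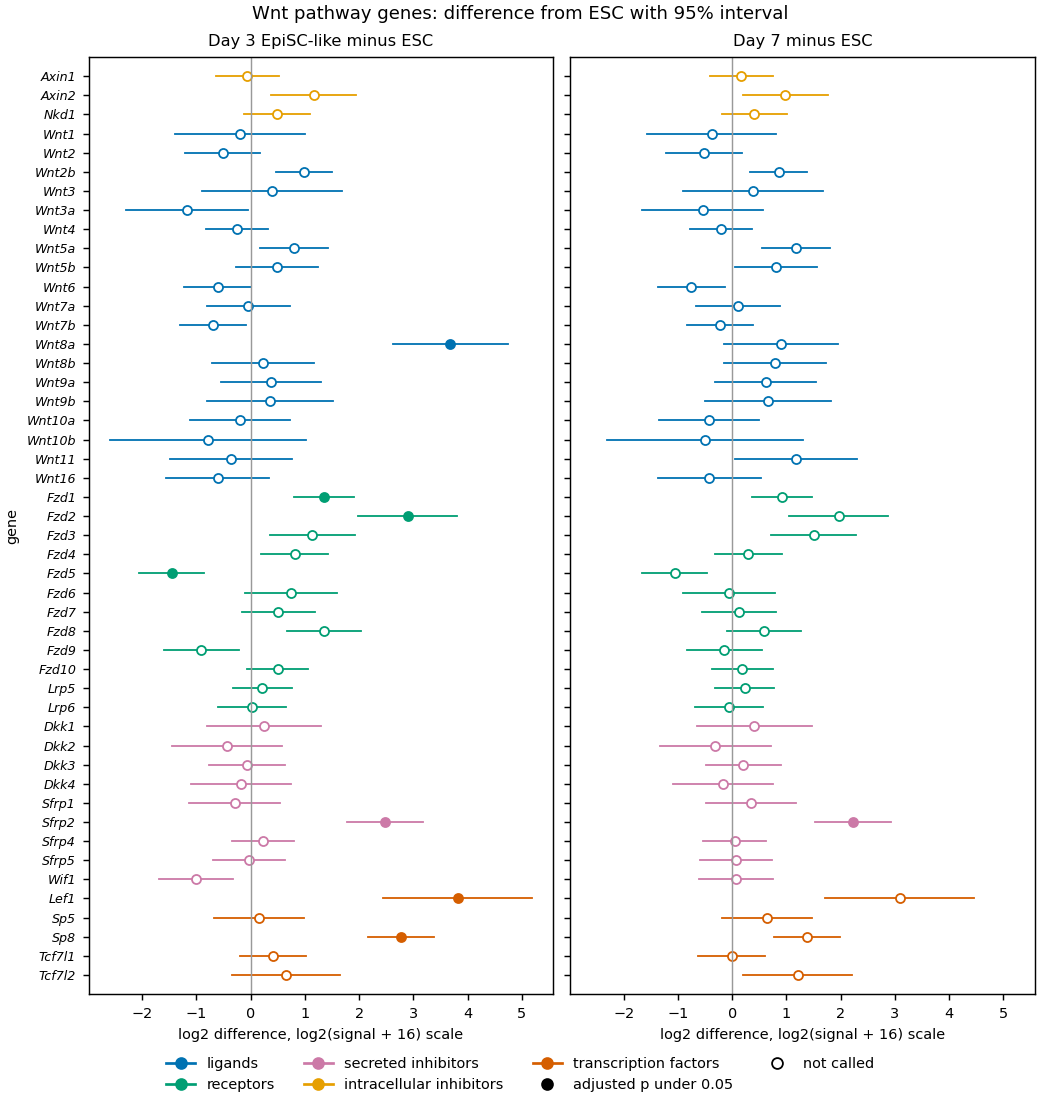
Log2 difference from ESC of each of the 48 Wnt pathway genes, at day 3 on the left and day 7 on the right, as points with 95% intervals of the limma fit, coloured by role. Filled points passed at an adjusted p under 0.05: 7 genes at day 3, with Lef1 at 3.82 and Fzd5 at -1.46 as the extremes, and Sfrp2 alone at day 7 (2.22).

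To show the sequence at an annotated start of the genes that passed, 300 bases (250 before, 50 after) are printed. This was done for the 5 of these 7 with an entry in the RefSeq promoter table of build GRCm38.p6. Capitals mark the letters CTTTGA or, on the opposite strand, TCAAAG, the core of the element bound by TCF/LEF factors. Where a gene had several windows, the one with a match is shown, chosen for that match. For Sp8 it is the second of 3. For Lef1 it is the fourth of 4 and begins at base 131156044, at the most downstream start. The other Lef1 windows begin at 131110047, 131110073 and 131112541. The other windows of both genes had no match.
Lef1, chr3:131156044-131156343, plus strand: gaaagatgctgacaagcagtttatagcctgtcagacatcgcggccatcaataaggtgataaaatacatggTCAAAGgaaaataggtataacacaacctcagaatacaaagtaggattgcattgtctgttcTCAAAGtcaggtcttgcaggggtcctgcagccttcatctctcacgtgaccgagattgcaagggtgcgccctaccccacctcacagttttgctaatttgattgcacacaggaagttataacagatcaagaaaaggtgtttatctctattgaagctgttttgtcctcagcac
Sp8, chr12:118846983-118847282, plus strand: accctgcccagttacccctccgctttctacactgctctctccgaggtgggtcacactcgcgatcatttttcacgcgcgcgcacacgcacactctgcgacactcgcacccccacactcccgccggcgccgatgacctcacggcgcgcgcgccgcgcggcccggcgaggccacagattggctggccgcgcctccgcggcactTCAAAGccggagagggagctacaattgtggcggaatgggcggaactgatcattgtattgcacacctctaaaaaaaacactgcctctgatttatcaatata
Fzd1, chr5:4758167-4758466, minus strand: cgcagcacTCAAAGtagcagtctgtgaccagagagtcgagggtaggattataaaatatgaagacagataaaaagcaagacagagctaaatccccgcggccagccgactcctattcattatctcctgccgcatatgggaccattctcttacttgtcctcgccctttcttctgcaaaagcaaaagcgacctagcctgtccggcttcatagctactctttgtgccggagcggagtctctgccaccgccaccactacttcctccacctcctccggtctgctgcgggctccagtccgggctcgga
Sfrp2, chr3:83766071-83766370, plus strand: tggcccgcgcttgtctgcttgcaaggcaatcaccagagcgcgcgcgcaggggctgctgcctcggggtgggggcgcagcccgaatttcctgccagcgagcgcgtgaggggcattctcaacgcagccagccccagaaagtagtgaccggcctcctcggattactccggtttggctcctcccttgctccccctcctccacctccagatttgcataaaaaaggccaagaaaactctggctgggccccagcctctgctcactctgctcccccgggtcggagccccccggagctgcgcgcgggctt
Fzd5, chr1:64737701-64738000, minus strand: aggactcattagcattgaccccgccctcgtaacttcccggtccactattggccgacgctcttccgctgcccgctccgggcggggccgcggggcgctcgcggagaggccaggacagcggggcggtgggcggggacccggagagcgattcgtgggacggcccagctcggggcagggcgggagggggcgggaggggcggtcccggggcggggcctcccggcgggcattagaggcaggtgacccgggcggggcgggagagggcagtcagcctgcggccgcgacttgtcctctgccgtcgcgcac

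These letters occurred in 3 of the 10 windows of the 5 genes, 1 window each in 3 genes. In Lef1 they lay 180 and 120 bases before the most downstream annotated start. In Sp8 they lay 50 bases before the second start and in Fzd1 242 before the start. All were on the opposite strand, and Sfrp2 and Fzd5 had none in this window. Across the 42 windows of the 33 members with an entry, 7 held the letters on either strand (16.7%), and 5257 of all 32851 windows of that length in RefSeq's promoter set did, a similar share. Counted per gene over any of its windows, 7 of the 33 members (21.2%) and 18.2% of the 27025 genes in that set held them. The target gene Sp5, which did not pass in any comparison, also held the letters, 204 and 104 bases before its start. A match is a description of the letters and not a measured binding site.

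Among the transcription factors, Lef1 and Sp8 rose at day 3 while the TCF genes Tcf7l1 and Tcf7l2 and the target gene Sp5 did not pass. Lef1 encodes an HMG-box protein that carries beta-catenin to its target genes. Its signal was 231 and 63.96 on the ESC arrays, 2074 and 1864 on the EpiSC-like arrays and 1662 and 839 on the day 7 arrays. All 4 arrays from SFEBq culture lay above both ESC arrays. The log2 difference was 3.82 ± 0.57 (SE) between EpiSC-like cells and ESC (limma adjusted p = 0.0359), and 3.08 and 4.56 within the replicate 1 and replicate 2 arrays. Day 7 stood 3.09 ± 0.57 above ESC, which missed the threshold (adjusted p = 0.0668). Against EpiSC-like cells it stood at -0.73 ± 0.57 (adjusted p = 0.629), with a 95% interval from -2.10 to 0.64. A dimmer probe set of Lef1 gave 1.94 at day 3 and 1.68 at day 7.

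Sp8 encodes a zinc finger factor known from Wnt- and FGF-dependent limb, tail and forebrain development. It read 19.2 and 11.3 in ESC, 215 and 177 in EpiSC-like cells and 59.5 and 70.8 at day 7. The 3 groups did not overlap, with day 7 between the others. The rise at day 3 was 2.77 ± 0.25 (limma adjusted p = 0.0172), and 2.71 and 2.82 within the 2 replicate numbers. The ESC level was near the pseudocount, and this difference was 3.64 with a pseudocount of 1, where it no longer passed (adjusted p = 0.0714), and 1.71 with 64. Day 7 was 1.38 ± 0.25 above ESC (adjusted p = 0.0660) and 1.38 ± 0.25 below EpiSC-like cells (adjusted p = 0.0979), neither of which passed.

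Tcf7l1 encodes the TCF protein that represses target genes in embryonic stem cells. It read 2272 and 2900 in ESC, 3236 and 3615 in EpiSC-like cells and 2864 and 2269 at day 7. Its log2 difference was 0.41 at day 3 (95% interval -0.20 to 1.03) and -0.01 at day 7 (-0.62 to 0.60). Tcf7l2, a TCF gene prominent in the gut and the thalamus, read 279 and 137, then 432 and 231, then 503 and 447 in the order ESC, EpiSC-like and day 7. Its ESC and EpiSC-like arrays overlapped, and day 7 stood 1.21 ± 0.42 above ESC (adjusted p = 0.203). All 4 probe sets of Tcf7l2 had positive differences in both comparisons with ESC. Sp5, a zinc finger gene that is a direct target of the pathway, read 56.3 and 47.9 in ESC, 49.5 and 71.0 in EpiSC-like cells and 127 and 62.3 at day 7, and stood at 0.15 ± 0.34 and 0.64 ± 0.34 against ESC (adjusted p = 0.892 and 0.384).

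**Figure D2:**
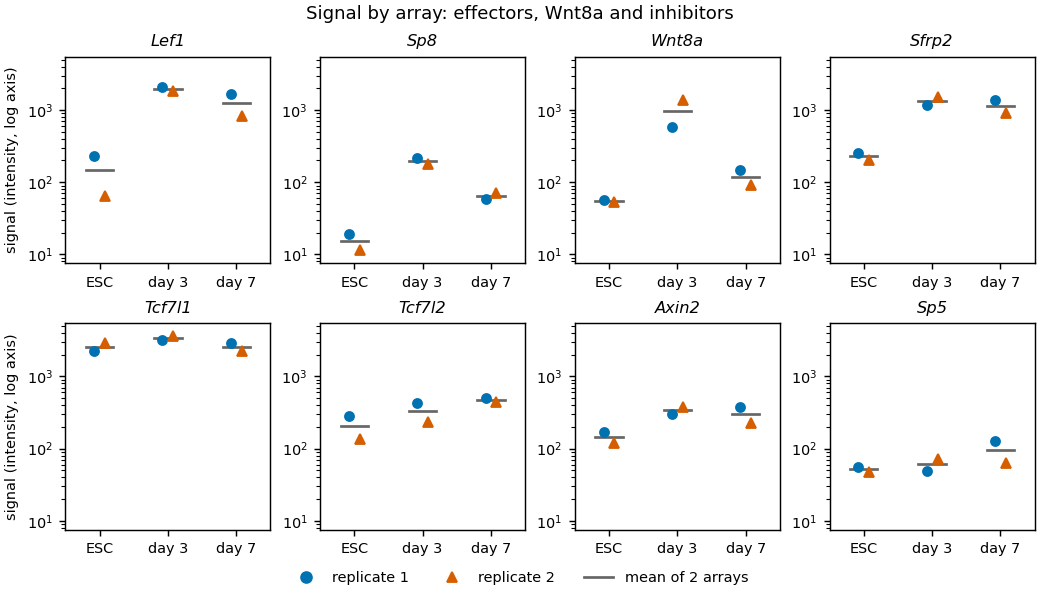
Signal intensity on a log axis for the 5 transcription factor genes and for Wnt8a, Sfrp2 and Axin2, by group, with circles for replicate 1, triangles for replicate 2 and a bar for the mean of 2 arrays. Lef1, Sp8, Wnt8a and Sfrp2 are higher on both EpiSC-like arrays than on both ESC arrays, and Wnt8a reads 147 and 92.2 at day 7; day 3 is the EpiSC-like group, and heights are not comparable between genes, which have different probes.

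Of the 19 ligand genes, 1 rose at day 3 (1.33% of all genes) and 0 passed at day 7 (1.05% of all genes in either direction). Wnt8a encodes a canonical ligand of the posterior epiblast and primitive streak. It read 57.3 and 52.9 in ESC, 575 and 1392 in EpiSC-like cells and 147 and 92.2 at day 7. The groups did not overlap, and the EpiSC-like arrays stood far above all others while differing from each other by more than the ESC or day 7 arrays did. The log2 difference was 3.68 ± 0.44 at day 3 (limma adjusted p = 0.0232), with 3.01 and 4.35 within the replicate numbers. At day 7 it stood at 0.90 ± 0.44 against ESC (adjusted p = 0.341) and at -2.78 ± 0.44 against EpiSC-like cells (adjusted p = 0.0867), neither of which passed, with a 95% interval of the second from -3.84 to -1.72. Of 9 listed markers of the primitive streak, 8 were among the genes tested on the same arrays. The gene T had no match by symbol there, and whether other probe sets read it was not examined. The signal of the 8 summed to 395 and 449 in ESC, 875 and 1259 in EpiSC-like cells and 824 and 643 at day 7. In every comparison 0 of the 8 passed. Most of the sum came from Eomes on EpiSC-like replicate 1 and from Fgf8 on EpiSC-like replicate 2. Eomes, a T-box gene of the streak and endoderm, read 179 and 159 in ESC, 508 and 243 in EpiSC-like cells and 493 and 346 at day 7 (0.997 ± 0.381 at day 3, adjusted p = 0.270). Fgf8, a growth factor gene of the streak and of neural organisers, read 25.6 and 5.82, then 160 and 751, then 154 and 56.7 (3.61 ± 0.76 at day 3, adjusted p = 0.0769). The streak gene Mixl1 read 48.5 and 59.6, then 75.4 and 56.1, then 12.6 and 21.3. No marker was listed at 0, and the part of streak cells in the Wnt8a signal was not tested.

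Wnt8a, Wnt6 and Wnt7b were the 3 ligand genes whose mean in some group reached 7.54 on the log2 scale, the median level over all genes, as 54.4% of all genes did. Wnt6, known from trophoblast and surface ectoderm, read 217 and 242 in ESC, 126 and 166 in EpiSC-like cells and 112 and 148 at day 7, with both ESC arrays above the other 4 (-0.61 ± 0.26 and -0.76 ± 0.26, adjusted p = 0.321 and 0.199). Wnt7b, a ligand gene of epithelia and neurons, read 308 and 338, then 226 and 165, then 295 and 255, lowest on both EpiSC-like arrays (-0.69 ± 0.25, adjusted p = 0.245). The other 16 ligand genes stayed below that level in every group. Wnt5a, the classical ligand of the non-canonical branch, read 29.8 and 36.8 in ESC, 69.6 and 69.5 in EpiSC-like cells and 77.2 and 117 at day 7, and stood at 1.18 ± 0.26 at day 7 (adjusted p = 0.0939). Wnt11, another non-canonical ligand gene, read 28.6 and 61.4, then 28.0 and 31.5, then 69.3 and 191, highest on day 7 replicate 2, the array that also had the highest endoderm marker sum, whose part in this value was not tested. Wnt3a, a ligand gene of the streak, read 38.5 and 94.1 in ESC and 10.3 and 28.9 in EpiSC-like cells (-1.17 ± 0.47, adjusted p = 0.290). Over the 19 ligand genes the median log2 difference was -0.20 at day 3 and 0.11 at day 7.

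The receptors held both directions of change. Fzd1 and Fzd2 rose and Fzd5 fell at day 3, where 1.90% of all genes passed in either direction. At day 7, 0 of the 12 passed, against 1.05% of all genes. The LRP coreceptor genes Lrp5 and Lrp6 lay between -0.06 and 0.23 in both comparisons with ESC. In each of the 10 frizzled genes the EpiSC-like arrays did not overlap the ESC arrays, against 44.8% of all genes; they lay below ESC in Fzd5 and Fzd9 and above it in the others. The median difference of the 10 was 0.78 at day 3 and 0.24 at day 7.

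Fzd2, a frizzled gene of the early embryo, read 126 and 70.5 in ESC, 689 and 941 in EpiSC-like cells and 547 and 314 at day 7. The groups did not overlap, and day 7 lay between the others. The rise at day 3 was 2.89 ± 0.38 (limma adjusted p = 0.0279), and 2.32 and 3.47 within the replicate numbers. Its 2 other probe sets gave 3.61 and 2.74. Day 7 stood 1.96 ± 0.38 above ESC (adjusted p = 0.0726) and at -0.93 ± 0.38 against EpiSC-like cells (adjusted p = 0.347). Fzd1, a close relative of Fzd2, read 66.2 and 68.2 in ESC, 219 and 176 in EpiSC-like cells and 146 and 137 at day 7, again without overlap. It rose by 1.35 ± 0.23 at day 3 (adjusted p = 0.0474). This call was lost when each array was centred (adjusted p = 0.0641) and after quantile normalization (adjusted p = 0.0517). Its other, dimmer probe set stood at 0.06, and the mean of both at 0.71 (adjusted p = 0.267).

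Fzd5, a receptor gene with roles in the early eye field, read 1588 and 1559 in ESC, 651 and 484 in EpiSC-like cells and 689 and 810 at day 7. Both ESC arrays lay above the other 4. It fell by 1.46 ± 0.25 at day 3 (limma adjusted p = 0.0477), with -1.27 and -1.66 within the replicate numbers and -1.37 from its other probe set. At day 7 it stood at -1.06 ± 0.25 against ESC (adjusted p = 0.107) and at 0.40 ± 0.25 against EpiSC-like cells (adjusted p = 0.538). Markers listed for naive ESC moved in the same direction: of 7, 3 fell at day 3, namely Klf4, Esrrb and Tfcp2l1. Their part in the Fzd5 value was not tested.

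Several other frizzled genes stood apart from ESC without passing. Fzd8, expressed in the anterior neural plate, read 83.1 and 53.9 in ESC, 183 and 212 in EpiSC-like cells and 128 and 92.5 at day 7 (1.36 ± 0.28 at day 3, adjusted p = 0.0760). Fzd3, a receptor gene of axon tracts and neural tube closure, read 175 and 176, then 328 and 498, then 415 and 670, and stood at 1.51 ± 0.33 at day 7 (adjusted p = 0.0883). Its 5 other, dimmer probe sets stood between -0.09 and 1.04 at day 7, and the mean over probe sets at 0.55 (adjusted p = 0.255). Fzd9 read 120 and 107 in ESC, 70.4 and 38.6 in EpiSC-like cells and 108 and 94.2 at day 7 (-0.91 ± 0.29 at day 3, adjusted p = 0.186). Fzd7, the receptor gene best known from embryonic stem cells, read 2548 and 2948, then 4233 and 3620, then 3681 and 2439. Its difference was 0.51 at day 3 (95% interval -0.17 to 1.19) and 0.13 at day 7 (-0.55 to 0.81). Fzd6 read 158 and 141 in ESC, 247 and 277 in EpiSC-like cells and 96.1 and 207 at day 7, overlapping ESC at day 7 (0.75 ± 0.35 and -0.07 ± 0.35, adjusted p = 0.376 and 0.947). Its 2 dimmer probe sets stood at -0.37 and -0.42 at day 3. Fzd10 read 156 and 143, then 193 and 246, then 171 and 174, lowest in ESC (0.50 ± 0.23 and 0.19 ± 0.23, adjusted p = 0.371 and 0.722). The dimmer gene Fzd4 stood at 0.81 and 0.30. Lrp6 read 459 and 634 in ESC, 506 and 597 in EpiSC-like cells and 555 and 483 at day 7, and its groups overlapped throughout (0.03 ± 0.26 and -0.06 ± 0.26, adjusted p = 0.980 and 0.933), while a dimmer probe set stood at 0.22 and 0.75.

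**Figure D3:**
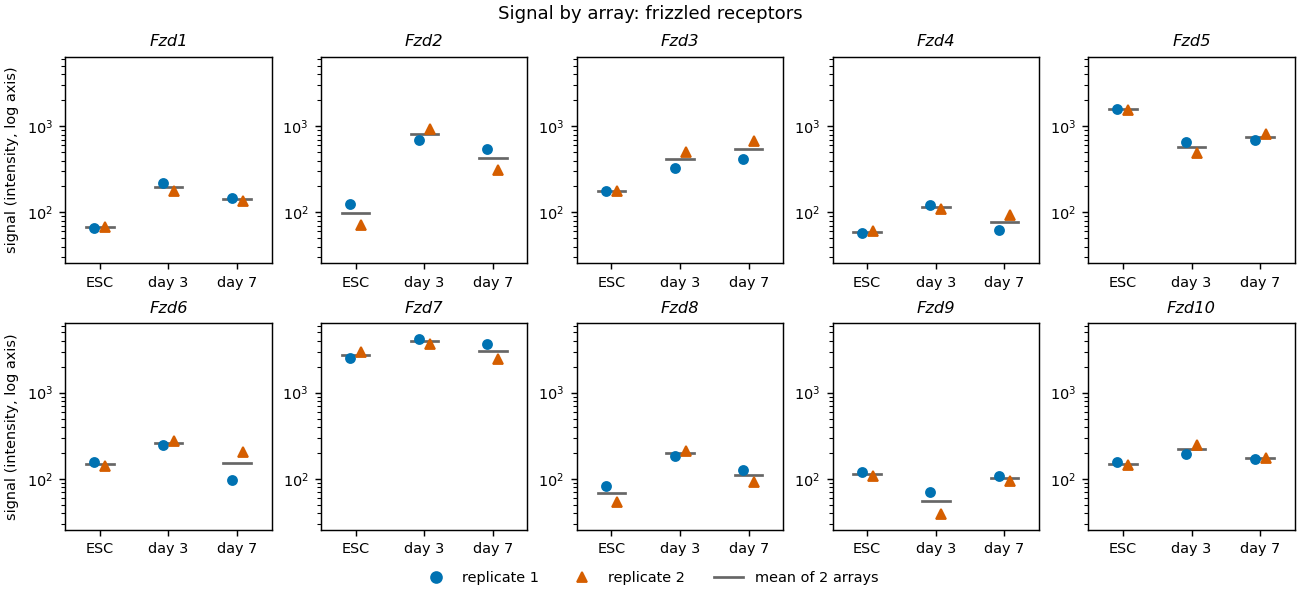
Signal intensity on a log axis for the 10 frizzled receptor genes by group, with circles for replicate 1, triangles for replicate 2 and a bar for the mean of 2 arrays. Fzd5 is highest in ESC (1588 and 1559), Fzd1 and Fzd2 are highest on the EpiSC-like arrays, and Fzd7 lies between 2439 and 4233 on all arrays; day 3 is the EpiSC-like group, and heights are not comparable between genes.

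Secreted inhibitors contributed the gene that passed in both comparisons with ESC. Sfrp2 encodes a frizzled-like protein without a membrane anchor that binds Wnt ligands outside the cell. It read 251.3 and 206 in ESC, 1191 and 1496 in EpiSC-like cells and 1370 and 911 at day 7. All 4 SFEBq arrays lay above both ESC arrays, while EpiSC-like and day 7 arrays overlapped. It rose by 2.47 ± 0.29 at day 3 (limma adjusted p = 0.0232; 2.18 and 2.77 within the replicate numbers) and by 2.22 ± 0.29 at day 7 (adjusted p = 0.0367; 2.38 and 2.06). Day 7 against EpiSC-like cells stood at -0.25 ± 0.29 (adjusted p = 0.757). Of 5 neural markers, 2 rose at day 3 and 3 at day 7. Their signal summed to 384 and 388 in ESC, 1617 and 2032 in EpiSC-like cells and 1483 and 2267 at day 7. Fabp7 was the largest part on all 4 SFEBq arrays (702 and 797 in EpiSC-like cells, 666 and 1511 at day 7). Pax6 read 189.5 and 213 in ESC, 249 and 351 in EpiSC-like cells and 171 and 184 at day 7. The part of these markers in the Sfrp2 signal was not tested.

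The other secreted inhibitors did not pass. Sfrp1, a relative of Sfrp2, read 566 and 364 in ESC, 434 and 310 in EpiSC-like cells and 726 and 469 at day 7, with all 3 groups overlapping except EpiSC-like and day 7. All 5 of its probe sets were negative at day 3 (-0.65 to -0.23) and positive for day 7 against EpiSC-like cells (0.64 to 1.35). Sfrp4 read 338 and 264, then 376 and 328, then 318 and 298, and stood at 0.22 and 0.04 against ESC. Dkk1, an LRP6 antagonist that patterns the anterior embryo, was dim on all arrays, at 48.7 and 52.0 in ESC, 46.5 and 82.8 in EpiSC-like cells and 41.8 and 118 at day 7, and its intervals against ESC (-0.81 to 1.30 and -0.65 to 1.46) hold changes in either direction. The Dkk family had a median of -0.12 at day 3 and 0.02 at day 7, and the other 3 Dkk genes overlapped between ESC and both other groups. Wif1, which binds Wnt proteins directly, read 33.2 and 23.0 in ESC, 1.74 and 10.8 in EpiSC-like cells and 30.3 and 29.8 at day 7, a dim gene whose day 3 interval ran from -1.69 to -0.32 (adjusted p = 0.155).

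The intracellular inhibitors include Axin2, the feedback gene most often used as a readout of canonical signalling. It read 169 and 118 in ESC, 300 and 378 in EpiSC-like cells and 378 and 228 at day 7. All 4 SFEBq arrays lay above both ESC arrays, but the differences of 1.16 ± 0.33 and 0.98 ± 0.33 did not pass (limma adjusted p = 0.152 and 0.192). Their 95% intervals ran from 0.38 to 1.95 and from 0.19 to 1.76. A second, dimmer probe set of Axin2 stood at -0.82 and -0.55. Axin1, the constitutive scaffold of the destruction complex, read 814 and 936, then 831 and 843, then 1126 and 860, with differences of -0.06 ± 0.24 and 0.17 ± 0.24. Nkd1, a feedback gene whose product binds Dishevelled, read 51.1 and 59.2, then 96.9 and 71.2, then 87.1 and 70.4 (0.48 ± 0.25 and 0.41 ± 0.25, adjusted p = 0.425 and 0.444).

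A wider list of 80 pathway genes outside the rule, some of them relatives of the members, placed the members in context. Of these, 77 were among the genes tested. Kremen2, T and the TCF gene Tcf7 had no match by symbol there. At day 3, 3 of the 77 rose and 0 fell, against the 1.33% and 0.572% of all genes. The 3 were Wls, which carries Wnt proteins to the cell surface, Ror1, a receptor kinase of the non-canonical branch, and Prickle1, a planar polarity gene. Wls read 110 and 87.7 in ESC, 335 and 283 in EpiSC-like cells and 183 and 240 at day 7 (1.502 ± 0.257 at day 3, limma adjusted p = 0.0477). Ror1 read 77.6 and 79.3, then 417 and 365, then 275 and 205 (2.10 ± 0.25, adjusted p = 0.0232). Prickle1 read 209 and 121, then 860 and 1020, then 186 and 229 (2.44 ± 0.31, adjusted p = 0.0260). In all 3 genes both EpiSC-like arrays stood above the other 4, and the day 7 differences from ESC of 0.98, 1.42 and 0.34 did not pass.

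At day 7, 0 of the 77 rose and 1 fell, where 0.764% of all genes rose and 0.286% fell. The gene that fell was the target gene Myc, a growth regulator with many other inputs. Myc read 908 and 579 in ESC, 756 and 538 in EpiSC-like cells and 94.5 and 84.6 at day 7 (-2.81 ± 0.31, limma adjusted p = 0.0292). The medians over the 77 were 0.21 and 0.14. Genes of the destruction complex and of signal relay showed smaller differences: over 17 of them 0 passed and values lay between -0.74 and 0.87 at day 3 and between -0.43 and 1.05 at day 7. Ctnnb1, the gene of beta-catenin, stood at 0.16 ± 0.30 and 0.21 ± 0.30, and the kinase gene Gsk3b at 0.87 ± 0.24 and 1.05 ± 0.24 (adjusted p = 0.147 and 0.101). Ptk7, a polarity receptor gene, read 564 and 586 in ESC, 1536 and 1627 in EpiSC-like cells and 774 and 410 at day 7 (1.43 ± 0.33 at day 3, adjusted p = 0.0930). Igfbp4, whose product also binds LRP6, stood at 2.13 ± 0.38 and 2.42 ± 0.38, just outside the threshold (adjusted p = 0.0530 and 0.0508). Frzb read 36.8 and 25.9 in ESC, 67.9 and 58.6 in EpiSC-like cells and 90.4 and 235 at day 7 (1.80 ± 0.42 at day 7, adjusted p = 0.103). The corepressor gene Tle4 stood at 0.74 ± 0.23 at day 3 and the acyltransferase gene Porcn, which modifies Wnt proteins, at 0.36 ± 0.31 (adjusted p = 0.178 and 0.656). Tle3, of the same family as Tle4, was lower at day 3, with 2306 and 2313 in ESC and 1741 and 1213 in EpiSC-like cells. Over the 9 nuclear genes of the list, 5 stood above 0 and 4 below at day 3 (-0.66 to 0.74). Over the 77, 23 stood below 0 at day 3 and 31 at day 7.

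**Figure D4:**
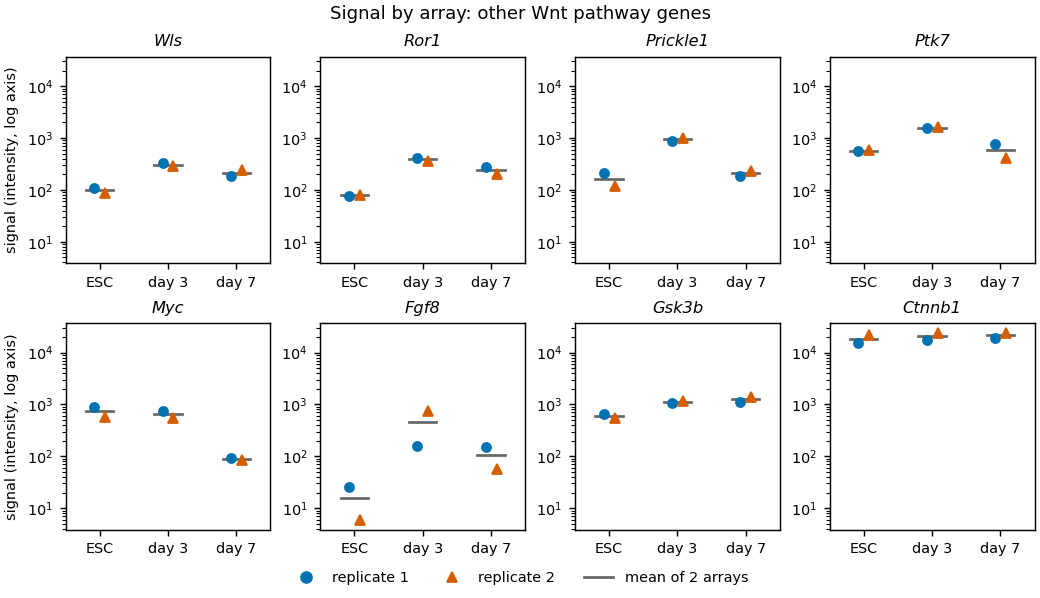
Signal intensity on a log axis for 8 other Wnt pathway genes by group, with circles for replicate 1, triangles for replicate 2 and a bar for the mean of 2 arrays. Wls, Ror1 and Prickle1 peak on the EpiSC-like arrays, Myc reads 94.5 and 84.6 at day 7, and Ctnnb1 lies between 15597 and 24240 on all arrays; day 3 is the EpiSC-like group, and heights are not comparable between genes.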

How the data were processed

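RNA of sorted OLV2-1 cells was hybridised to 6 arrays (3 groups of 2). The authors deposited 1 linear signal intensity for each probe set. The submitters' processing notes name Affymetrix Expression Console (version 1); the algorithm and genome build are not given in the sources used here. Each array had a mean of 500.003 to 500.004 after removal of the outer 2% of probe sets at each end, so the deposited intensities had been scaled to a common level. Detection calls were not used here, and the number of arrays limits the precision.

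Of 45101 probe sets, 64 controls were left out, and 34945 had 1 gene in the platform annotation (932 had several). For every gene the probe set with the highest mean signal was used (18193 genes). RefSeq (GRCm38.p6) held 48 of 48 members by gene identifier and changed 0 symbols; 29 members had several probe sets. Values were transformed as log2(signal + 16) and fitted with limma 3.58.1 (R 4.3.3), with 3 group means, no covariate and 3 residual degrees of freedom. Calls used a Benjamini-Hochberg adjusted p under 0.05 over all genes. Errors are SE of that fit. The script was tested on simulated data.

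The members and lists were chosen with earlier results of these data known. Members were given with their value on every array where called or where a group mean reached the median of all genes, and up to 3 others were named per family; other genes were named from the wider list where called, with up to 8 uncalled, and as markers. Genes most like Lef1, also planned, are not listed because the arrays fall into groups. Alternatives were other pseudocounts, filters, scalings, probe set rules, priors, a replicate block and leaving out each array.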

Additional observations from a re-analysis of the deposited data

How the results depend on the processing

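Each count of members called was repeated under 17 other settings per comparison, of which 6 leave out 1 array. For EpiSC-like cells against ESC (7 called), the counts were 0 with a pseudocount of 1, 0 with the replicate block, 1 with only the groups compared in the fit and 4 with each probe set as its own feature, where more features are tested; they ran from 5 to 8 in the other 7 settings and from 0 to 2 with an array left out. For day 7 against ESC (1 called), they were 0 with a pseudocount of 1, with each probe set as its own feature, with the replicate block and with only the groups compared, 2 with the mean over probe sets, 4 when genes under the 25th percentile were dropped (36 members left), and 5 when genes under the median were dropped (16 members left), with a pseudocount of 64 and with a variance trend and robust prior. Leaving out an array gave 0 in each case. For day 7 against EpiSC-like cells (0 called), 1 fell with a pseudocount of 64, with either filter and with a trend and robust prior, Wnt8a each time, and 0 passed in the other settings. Some of these fits had fewer features or arrays, and the cause of the shifts was not tested. With a pseudocount of 1 and with the replicate block, 0 of all genes passed in any comparison. In the comparisons with ESC, leaving out an array also lowered the calls over all genes.

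The replicate block rests on numbers that may not pair the arrays: deviations of same-numbered arrays from their group means correlated across genes with r = 0.286, 0.077 and 0.094. Centring arrays on their median moved the median of all genes to -0.13 at day 3 and -0.20 at day 7, and split the calls over all genes 184 to 149 in place of 242 to 104, and 94 to 82 in place of 139 to 52. Of the 8 called member differences 0 changed sign in any setting; of 136 uncalled ones, 60 did so in at least 1 and 7 passed in at least 1.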
